A study of Mus musculus with 8 samples.

Results

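Skin of mice injected with bleomycin was compared with skin of mice injected with phosphate-buffered saline (PBS), gene by gene, by RNA sequencing of 3 bleomycin libraries and 2 PBS libraries out of 8 in the series. Every gene with a deposited value of at least 10 in at least 2 of the 8 libraries entered the comparison, which kept 23185 of 24612 genes. All mice were male C57BL/6 J, ordered at 4 weeks of age and treated from 6 weeks, and total RNA came from skin homogenates labelled 21 days. PBS mice received 0.1 mL of PBS and bleomycin mice 0.1 units of bleomycin, both under the skin. The 3 remaining libraries, from mice given celastrol into the peritoneum at 1 or 2 mg/kg, entered the filter and the estimate of the spread between libraries, and are compared with neither group. The labels do not say which dose each of these received, or whether they also received bleomycin. They name no transgene or mutant allele, nor whether the sampled skin was the injected site. They do not say whether RNA was pooled or whether libraries of a group came from separate mice, so p-values measure only the spread between these samples, which may be technical.

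Bleomycin is a glycopeptide that binds DNA and breaks it. Repeated injection under mouse skin is used to model the inflamed and scarred skin of systemic sclerosis. Broken DNA activates p53, which switches on genes that halt the cell cycle or start cell death. Nucleic acids that reach the cytosol are read by sensors that start the interferon response, in which STAT and IRF proteins switch on interferon-stimulated genes. In the dermis, fibroblasts make the collagens and proteoglycans whose build-up defines fibrosis.

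Values are the normalized read counts per gene that the authors deposited, and each log2 change is the bleomycin mean minus the PBS mean of log2(value + 1), with its standard error (SE) from limma. Values of single libraries are listed in the order PBS 2 and PBS 3, then Bleomycin 2, Bleomycin 3 and Bleomycin 4. Estimated depth lay between 18500000 reads in Bleomycin 3 and 33600000 in PBS 2. All 12 basal and all 30 differentiated keratinocyte genes tested were above 0 in these 5 libraries. Of 35 hair shaft and root sheath genes 11 could be tested. The 34 skeletal muscle genes were all above 0 too, and took at most 2.78% of all values in a PBS library and 5.48%, 3.81% and 4.36% in the bleomycin libraries. Their part in the results below was not tested. In bulk RNA, fewer cells of a type and less RNA per cell cannot be told apart.

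The libraries also differed along the GC content of transcripts, in a way that crossed the groups. In the fifth of genes with the highest GC share, PBS 2 lay 0.38 above and PBS 3 0.38 below the PBS mean (median, log2 scale). Bleomycin 2 lay 0.48 above the bleomycin mean there, and Bleomycin 3 and Bleomycin 4 lay at -0.27 and -0.15. Removing this trend from each library, a step added after the data were seen, raised the number of called genes from 157 to 295, and the 157 stayed among them. GC values were at hand for 97.7% of the genes tested.

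Of 23185 genes tested 157 (0.677%) passed limma's test at an adjusted p below 0.05, with 105 (0.453%) higher and 52 (0.224%) lower in bleomycin. Genes called as higher rose by 0.99 to 9.30 on the log2 scale, with a median of 2.30. Those called as lower lay between -9.73 and -0.96, with a median of -1.94. In all 157 genes the bleomycin libraries lay entirely above or entirely below both PBS libraries. Over all genes tested, 12.0% had every bleomycin library above both PBS libraries and 11.6% had every one below. The median change over all genes was -0.00. The plot of change against p shows interferon-stimulated genes and a set of repeat-like loci at the smallest p among genes that rose.

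**Figure D1:**
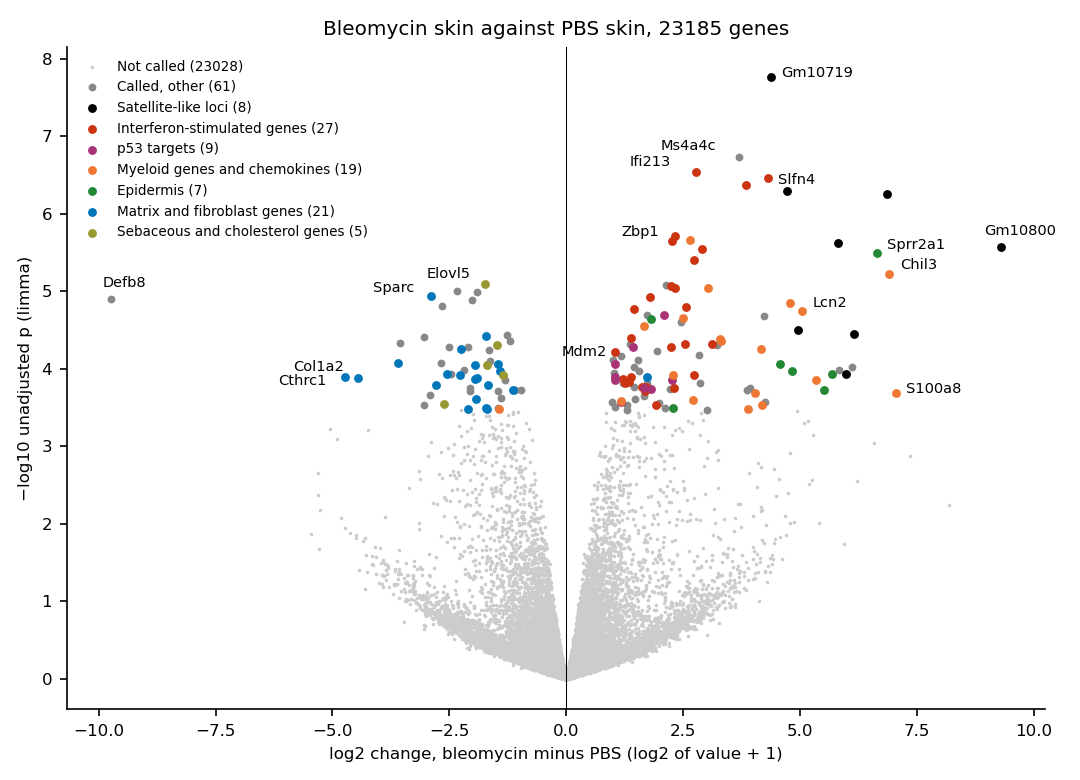
Each point is 1 of 23185 genes, with the log2 change (bleomycin minus PBS) on the x axis and −log10 of the unadjusted limma p on the y axis. Coloured points are the called genes by role. The smallest p belongs to Gm10719, and the lowest change to Defb8 at -9.73 ± 1.28.

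Calls rested on few libraries. With 1 library left out at a time, 13 of the 157 genes kept their call in all 8 fits, all of them higher in bleomycin. They were the interferon-linked genes Zbp1, Ifi213, Ifi206, Slfn1 and Slfn4, the immune genes Ms4a4c and Tlr13, the epidermal gene Sprr2a1, and the loci Gm10719, Gm10801, Gm10721, Gm21738 and Gm10800. Among lower genes, Elovl5, Rarres1 and Aadacl2fm1 kept theirs in 6 of 8, which was the most. Of the 157, 47 stayed called without PBS 2, 16 without PBS 3, 140 without Bleomycin 2, 30 without Bleomycin 3 and 16 without Bleomycin 4. Without a PBS library that group is 1 sample, assumed to vary like the other groups. No called gene changed direction in any of these fits. The fitted fold of 24 called genes, 22 higher and 2 lower, moved by over 1.5 times in at least 1 fit: leaving out PBS 2 did so for 18, PBS 3 for 18, Bleomycin 2 for 11 and Bleomycin 3 for 7. Without PBS 3, for example, the log2 change of Gm10800 was 6.79 in place of 9.30, that of Chil3 5.26 in place of 6.92, and that of Gsdmc 3.37 in place of 4.83. That of Ankrd1 was 2.96 without PBS 2 in place of 3.86, that of S100a8 5.45 without Bleomycin 3 in place of 7.06, and those of Col1a2 and Col3a1 -5.34 and -4.25 without Bleomycin 2 in place of -4.46 and -3.59. These 13 and other genes below that fall outside the rule for named genes were chosen after their values were seen.

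**Figure D2:**
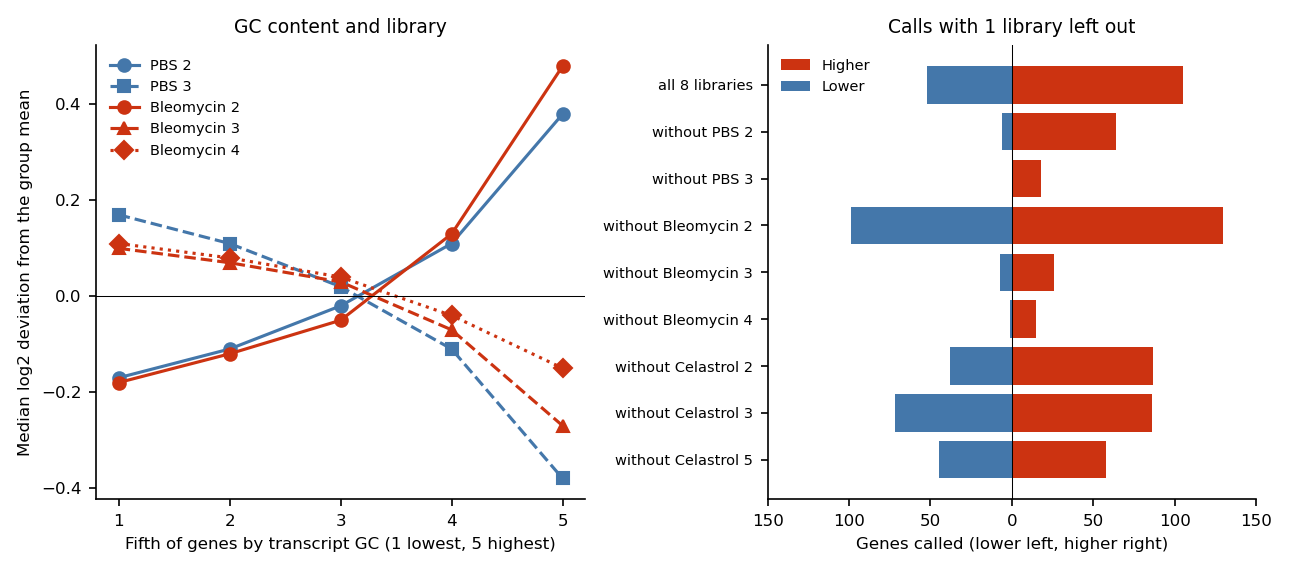
Left, the median log2 deviation of each library from its group mean in 5 equal groups of genes ordered by transcript GC; PBS 2 and Bleomycin 2 climb to 0.38 and 0.48 in the group with the highest GC while the other 3 fall. Right, the number of genes called higher (red) and lower (blue) with all libraries and with each library left out; lower calls number 0 without PBS 3.

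The gene with the smallest p was Gm10719, a predicted gene at the centromere end of chromosome 9 (mm10, chr9:3017408-3021593). It stood at 89.7 and 143 in PBS and 1688, 2383 and 3306 in bleomycin, and rose by 4.37 ± 0.29 (SE; limma adjusted p = 0.000399). Its transcript shared at least 10 stretches of 25 bases with those of 11 other loci in the table, 9 of the 12 on chromosome 9 between 3000922 and 3038316, 2 on chromosome 2 and 1 on chromosome 14. In 8 of the 12 loci the transcript matched itself best at a shift of 234 bases, the unit length known for the mouse major satellite, the repeat that packs the DNA around centromeres. These matches were partial, with 52.7% (Gm10801) to 67.6% (Gm10721) of bases identical at the best shift over the 12 loci. For Gm10719, Gm10801 and Gm10800, printed below, that shift was 237, 231 and 225 bases. Of the 12 loci, 8 rose and 4 did not pass. How many reads could be placed at a single locus was not tested. The sequences below, from GENCODE M21 transcripts on mm10, show a stretch in which 4 of these loci are alike. Capitals mark the 48 bases that all 4 share without a mismatch.
Gm10719 (chr9:3020503-3020622, plus strand): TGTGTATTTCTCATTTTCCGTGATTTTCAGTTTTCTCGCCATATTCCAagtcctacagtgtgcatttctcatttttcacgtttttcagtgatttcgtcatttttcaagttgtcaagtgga
Gm10721 (chr9:3013418-3013537, plus strand): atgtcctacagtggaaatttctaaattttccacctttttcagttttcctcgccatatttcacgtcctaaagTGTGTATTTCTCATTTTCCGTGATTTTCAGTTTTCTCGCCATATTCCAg
Gm10801 (chr2:98662384-98662503, plus strand): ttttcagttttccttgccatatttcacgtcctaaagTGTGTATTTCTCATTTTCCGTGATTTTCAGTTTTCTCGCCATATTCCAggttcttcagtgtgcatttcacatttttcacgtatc
Gm10800 (chr2:98667103-98667222, minus strand): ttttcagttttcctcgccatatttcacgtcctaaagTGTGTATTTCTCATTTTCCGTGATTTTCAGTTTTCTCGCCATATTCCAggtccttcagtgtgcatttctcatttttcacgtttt

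Because copies of a repeat may share reads, the sum over the 12 loci is given before single loci. It was 200.3 and 223 in PBS and 5844, 8243 and 10799 in bleomycin. The bleomycin mean was 39.2 times the PBS mean (212 ± 15.98, SD, n = 2, against 8295 ± 2478, n = 3). The sum amounted to 288 and 202 reads in PBS and to between 6306 and 14695 in bleomycin. Among single loci, Gm10800 stood at 31.5 and 0 in PBS and 2629, 3603 and 4890.2 in bleomycin, Gm10801 at 13.2 and 24.6 in PBS and 351, 618 and 587 in bleomycin and Gm21738 at 4.84 and 2.04 in PBS and 152, 364 and 244 in bleomycin. Gm10718 stood at 4.41 and 21.5 in PBS and 343, 219 and 544 in bleomycin. Gm10715 was at 0 in PBS and at least 28.5-fold higher in bleomycin. By values rounded to whole reads, Gm10721 was 266 times higher from about 2 reads in PBS (95% counting interval 73.4 to 2200). That interval leaves out reads that loci may share. The limma fit gave Gm10721 a change of 6.88 ± 0.65, or 117-fold. Without PBS 3 the change of Gm10717 fell from 6.00 to 3.87, and it lost its call. Gm10720, Gm10722, Gm11168 and Gm17535 did not pass, with changes of 4.40, 2.37, 5.08 and 3.26. Whether reads were counted by strand, and whether DNA was removed before library construction, is not given in the sources used here. The share of these values that came from RNA was not tested.

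Interferon-linked genes rose and none fell, among sensors (1 of 17 called), signalling proteins (3 of 20) and effectors (14 of 42). The first to describe is Zbp1, whose libraries lay close together within each group. Zbp1, which binds Z-form nucleic acid and can trigger necroptosis, stood at 182 and 189.8 in PBS and 849.7, 822 and 1204 in bleomycin, and rose by 2.34 ± 0.25 (limma adjusted p = 0.00506), 5.05-fold. Of the 17 sensors and necroptosis effectors 11 had every bleomycin library above both PBS libraries, against 12.0% of all genes. The list median was 0.70. Mlkl, the pore-forming protein of necroptosis, stood at 200.3 and 164 in PBS and 257, 327 and 396 in bleomycin and did not pass (adjusted p = 0.626). Stat2 and Irf7 were among the signalling genes that rose, each with no overlap between groups. Stat2, a transcription factor of the type I interferon response, varied little within groups, with 1409.5 and 1413 in PBS and 2882, 2831 and 2974 in bleomycin. Irf7, which drives the late interferon response, stood at 317 and 113 in PBS and 1845, 1226 and 2003 in bleomycin and rose by 3.12, or by 3.87 without PBS 2 and 2.38 without PBS 3, where it lost its call. Irf9, the DNA-binding partner of Stat2, had a change of 0.78 ± 0.24 and did not pass. Of 10 listed genes for the interferons themselves 0 were in the set of genes tested, so no change is given for them.

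The 42 interferon effector genes had 14 that rose, 0 that fell and a median of 1.42. In 34 of the 42 all bleomycin libraries lay above both PBS libraries, against 12.0% of all genes. Ifit3, which binds viral RNA together with Ifit1, stood at 444 and 238 in PBS and 2161, 1769 and 2664 in bleomycin, and Ifit1 at 339.8 and 228 in PBS and 1519, 958 and 1909.7 in bleomycin. Ifit2, which lies near them on chromosome 19, stood at 675 and 762 in PBS and 2182, 1569 and 3202 in bleomycin. The 3 genes rose by 2.73, 2.33 and 1.63, in that order, and in each the lowest bleomycin library was Bleomycin 3. Oasl2, of the oligoadenylate synthetase family, stood at 603 and 469 in PBS and 2534, 2014 and 3361 in bleomycin and kept its call in 7 of the 8 fits. Rsad2, or viperin, stood at 202 and 217 in PBS and 1063, 597 and 1556 in bleomycin, with the same library lowest. Other members that rose were Ifi44 (2.56), the chaperone gene Rtp4 (2.54), Mx2 (2.31), Bst2 or tetherin (1.93), Xaf1 (1.71), Trim30a (1.45), Mx1 (1.39), Rnf213 (1.35) and Parp9 (1.21). The table's annotation gives Mx1 and Mx2 as polymorphic pseudogenes. Oas1a, Oas2 and Oas3 had changes of 2.34, 1.48 and 2.48 and did not pass (adjusted p = 0.0677, 0.0686 and 0.0686). The ubiquitin-like gene Isg15 stood at 24.3 and 1.10 in PBS and 61.3, 28.8 and 106 in bleomycin and did not pass either. With the GC trend removed, 24 members were called.

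Together with the PYHIN, Schlafen and GTPase genes described below, 27 interferon-linked genes were called. Of these, 12 stayed called without PBS 2, 5 without PBS 3, 25 without Bleomycin 2, 13 without Bleomycin 3 and 7 without Bleomycin 4. The list median of the effector genes stayed between 1.22 and 1.58 when single libraries were left out. Median deviations of the list from the PBS mean were 1.44, 1.07 and 1.74 in the bleomycin libraries, and 0.21 and -0.21 in PBS.

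Complexes of STAT2 and IRF9 bind the interferon-stimulated response element, whose core is TTTC, any 2 bases and TTTC again. This motif was searched on both strands in the 250 bases before the start of each gene, in RefSeq promoters of GRCm38.p6, and a gene was counted once however many matches it held. It was present in 481 of 14127 tested genes with a promoter (3.40%). Among called genes it was found in 17 of 78 that rose (21.8%) and in 1 of 42 that fell, Fbn1 (2.38%). Of the interferon effector genes 12 of 31 held it, of the PYHIN genes 8 of 11 and of the interferon-gamma GTPases 10 of 11. The p53 response element was in 8 of the 14127 promoters and in 0 of 78 that rose, and at this frequency nothing is drawn from that. The windows below are those of the 6 called members of the interferon lists with the motif that had the smallest p, 100 bases each, with the motif in capitals. In Ifi213 and Ifi206 it lies on the opposite strand and reads GAAATCGAAA.
Ifi213 (chr1:173599291-173599390, minus strand): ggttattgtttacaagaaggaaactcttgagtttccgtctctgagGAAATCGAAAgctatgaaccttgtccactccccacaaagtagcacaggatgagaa
Ifi206 (chr1:173491319-173491418, minus strand): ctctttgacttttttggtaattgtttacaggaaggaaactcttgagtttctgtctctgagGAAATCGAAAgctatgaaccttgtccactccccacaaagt
Ifit3 (chr19:34583345-34583444, plus strand): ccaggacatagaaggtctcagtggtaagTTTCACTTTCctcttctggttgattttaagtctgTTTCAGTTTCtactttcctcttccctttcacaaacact
Ifit1 (chr19:34640749-34640848, plus strand): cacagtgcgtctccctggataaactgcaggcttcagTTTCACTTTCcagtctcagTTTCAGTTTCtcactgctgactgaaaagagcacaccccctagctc
Trim30a (chr7:104465194-104465293, minus strand): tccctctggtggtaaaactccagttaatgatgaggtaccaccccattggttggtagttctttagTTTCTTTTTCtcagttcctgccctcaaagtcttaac
Rsad2 (chr12:26456518-26456617, minus strand): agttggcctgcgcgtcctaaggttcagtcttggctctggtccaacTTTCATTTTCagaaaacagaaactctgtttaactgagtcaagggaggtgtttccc

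Ifit3 and Ifit1 each carried the motif 2 times, beginning 156 and 122 bases before the start in Ifit3 and 104 and 85 before it in Ifit1. In Ifi213 it began 73 and in Ifi206 40 bases before the start. The Ifi213 and Ifi206 promoters shared an unbroken stretch of 135 bases. A match is a stretch of letters, and no binding was measured.

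The PYHIN genes, whose products bind DNA through HIN domains, sit in a row on chromosome 1. Of 12 tested 4 rose and 0 fell, with a median of 0.97. Among listed genes Ifi213 had the smallest p, at 185 and 187 in PBS and 1053, 1272 and 1583 in bleomycin, a rise of 2.78 ± 0.24 (limma adjusted p = 0.00186), 6.86-fold. Ifi206 stood at 101 and 100.2 in PBS and 709, 554 and 1104 in bleomycin and Ifi209 at 513 and 453 in PBS and 1892, 2108 and 2947 in bleomycin. Ifi208 stood at 97.6 and 53.7 in PBS and 482, 392 and 607 in bleomycin. With Ifi214, which no list held and which stood at 103 and 68.7 in PBS and 417, 398 and 623 in bleomycin, they form a run of 5 called genes over 230 kb (chr1:173468485-173698395), and all 5 genes tested inside it were called. Ifi204, a family member described as a DNA sensor, stood at 2746 and 3249 in PBS and 5394, 6161 and 10036 in bleomycin and did not pass (adjusted p = 0.102). Copies in this family are alike in sequence, so reads may be shared among them.

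A second run lies on chromosome 11 (chr11:83002158-83190216), where 4 of 7 tested genes were called, all Schlafen genes. This family regulates growth of T cells and myeloid cells and answers to interferon. Slfn4 stood at 147 and 65.1 in PBS and 1779, 1387 and 3091 in bleomycin and Slfn1 at 96.7 and 72.8 in PBS and 915, 1248 and 1629 in bleomycin, which are rises of 4.32 ± 0.39 and 3.86 ± 0.35 (limma adjusted p = 0.00186 for both). Slfn2 stood at 538 and 352 in PBS and 1519.9, 1332 and 1734 in bleomycin and Slfn8 at 779 and 1009.8 in PBS and 1983, 3401 and 3451 in bleomycin. Of 8 Schlafen genes 4 rose and 0 fell, and the median was 1.57. The interferon-gamma GTPases, which attack membranes around intracellular pathogens, had 1 called member of 17, Irgm1 at 618 and 537 in PBS and 1363, 1242 and 1546 in bleomycin. In 14 of the 17 every bleomycin library lay above both PBS libraries, against 12.0% of all genes, and the median was 1.15. Gbp5 and Iigp1 had changes of 1.23 and 1.55 and did not pass (adjusted p = 0.0641 and 0.0652).

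Among genes of antigen presentation 1 was called. Of 18 MHC class I genes 0 passed, with a median of 0.54. In 9 of the 18 the bleomycin libraries lay above both PBS libraries, against 12.0% of all genes. Tap1, the peptide transporter, stood at 805 and 333 in PBS and 1657, 839 and 981 in bleomycin. Of 12 MHC class II genes 1 rose and 0 fell, with a median of -0.21. That gene was Ctss, a lysosomal protease that trims the invariant chain, at 2875 and 2686 in PBS and 6872, 10689 and 10708 in bleomycin. The class II chain gene H2-Aa stood at 3529 and 1969.5 in PBS and 1582, 1980.3 and 1717 in bleomycin and did not pass.

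**Figure D3:**
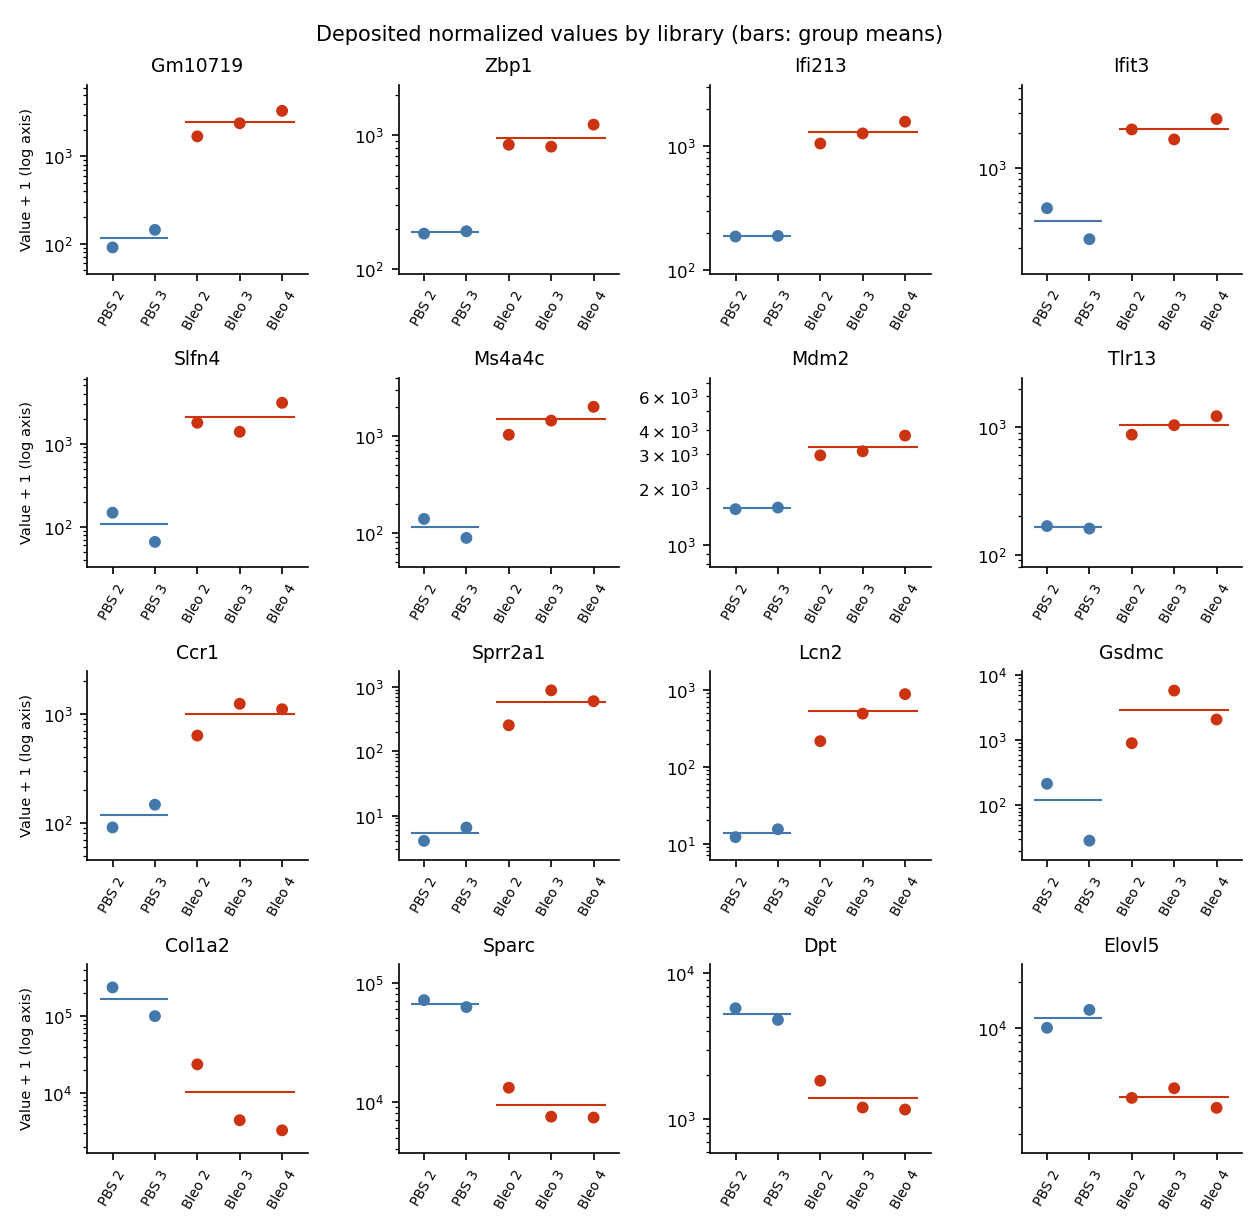
Deposited values plus 1 (log axis) of 16 called genes in each library, PBS in blue and bleomycin in red, with bars at the group means. In none of the 16 do the groups overlap. In Col1a2, Sparc and Dpt, Bleomycin 2 is the bleomycin library nearest to PBS.

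Of 28 targets that serve arrest and feedback 7 rose, 0 fell and 21 did not pass, with a median of 0.49. In 15 of the 28 all bleomycin libraries lay above both PBS libraries, against 12.0% of all genes. Mdm2, the ubiquitin ligase that degrades p53, stood at 1544 and 1574 in PBS and 2943, 3091 and 3733 in bleomycin, a 2.08-fold rise in which the PBS libraries differed by less than the bleomycin libraries. Cyclin G1 (Ccng1) stood at 5443 and 5849 in PBS and 11323, 10982 and 12983 in bleomycin, the kinase gene Plk2 at 1002 and 1044 in PBS and 1912, 2472 and 2041 in bleomycin and the stress gene Trp53inp1 at 3645 and 4743 in PBS and 9957, 7401 and 11002 in bleomycin. In all 4 the groups were apart. Eda2r, a receptor of the tumour necrosis factor family, stood at 328 and 481 in PBS and 1165, 1104 and 1564 in bleomycin. The costimulatory gene Cd80 and the mitotic gene Psrc1 rose by 2.27 and 1.82. Of 16 apoptosis targets 2 rose. Pmaip1, or Noxa, a BH3-only protein, stood at 243 and 242 in PBS and 744, 1091 and 1397 in bleomycin, and the nuclease gene Aen at 336 and 336 in PBS and 865, 866 and 980.0 in bleomycin.

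The cell cycle inhibitor Cdkn1a stood at 1214 and 542 in PBS and 2524, 1258 and 1500.0 in bleomycin and did not pass (adjusted p = 0.499). Its PBS 2 value lay close below that of Bleomycin 3. Bax stood at 76.4 and 62.7 in PBS and 175, 125 and 118 in bleomycin and did not pass. Trp53, the gene of p53 itself, stood at 586 and 479 in PBS and 583, 509.9 and 599 in bleomycin, a change of 0.09 ± 0.24. Of 10 genes of the p53 family and the damage kinases 0 passed, with a median of 0.18, and of 24 DNA repair genes 0 passed, with a median of 0.22. Of 31 proliferation genes 0 passed (median 0.55). Outside the lists, Ddias, named for suppressing apoptosis after DNA damage, stood at 82.8 and 72.8 in PBS and 237, 288 and 448 in bleomycin, Rnf169, of the response to double-strand breaks, at 1316 and 1309.7 in PBS and 2394, 2704 and 2888 in bleomycin and the deoxynucleoside kinase gene Dck at 279.6 and 233 in PBS and 706, 708 and 675 in bleomycin. Of the 9 p53 targets called, 8 stayed called without Bleomycin 2, and 0 without PBS 2, PBS 3, Bleomycin 3 or Bleomycin 4. Their changes moved less than their calls, with Mdm2 at 0.95 to 1.12, Ccng1 at 0.98 to 1.11 and Aen at 1.36 to 1.45 over the 8 fits. All 9 stayed called with the GC trend removed, but 0 with only the PBS and bleomycin libraries. With libraries of the same number fitted as a block, 0 stayed called.

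Of 36 macrophage genes 6 rose and 0 fell, and the median was 0.70, with changes from -3.41 to 6.92. In 52.8% of the 36 every bleomycin library lay above both PBS libraries, and in 13.9% every one lay below. Over all genes these shares were 12.0% and 11.6%. Chil3, a chitinase-like protein, stood at 9.04 and 0 in PBS and 412, 299 and 453 in bleomycin and kept its call in 7 of 8 fits. Ly6c2, a marker of classical monocytes, stood at 133 and 46.0 in PBS and 733, 559 and 1118 in bleomycin. The C-type lectin genes Clec4e (Mincle) and Clec4n (Dectin-2), which sense fungal and mycobacterial glycolipids and glycans, stood at 15.3 and 4.41 in PBS and 170.1, 316 and 319 in bleomycin and at 73.0 and 47.4 in PBS and 421, 804 and 617 in bleomycin. The Fc receptor gene Fcgr1 stood at 111 and 9.93 in PBS and 508, 600.0 and 636 in bleomycin; without PBS 3 its change fell from 4.05 to 2.37 and it lost its call. Cybb, the catalytic subunit of the phagocyte oxidase, rose by 1.18 ± 0.22.

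Several macrophage markers did not pass. Adgre1 (F4/80) stood at 1217 and 1001 in PBS and 1512, 1418 and 1569.6 in bleomycin, Cd68 at 277 and 289 in PBS and 662, 507 and 737 in bleomycin and Csf1r at 2637 and 1463 in PBS and 1742, 1486 and 1215 in bleomycin. Outside the lists, Ms4a4c, a tetraspanning membrane protein of myeloid and lymphoid cells, had the second smallest p of the comparison (138 and 87.2 in PBS and 1031, 1446 and 2008 in bleomycin; 3.71 ± 0.31, limma adjusted p = 0.00186). Its neighbour Ms4a6b stood at 481 and 428 in PBS and 1220.1, 1938 and 2308 in bleomycin. Mpeg1, which encodes perforin-2 of macrophages, stood at 2038 and 1616 in PBS and 4312, 4360.5 and 5373 in bleomycin, and the receptor genes Cd300ld and Sirpb1c rose by 1.74 and 3.23. The myeloid and lymphoid signalling genes Plek, Lcp2, Lair1, Rgs1 and Gpr65 rose by between 1.22 (Plek) and 2.23 (Rgs1).

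Of 45 genes of chemokines and their receptors 4 rose, 0 fell and 41 did not pass (median 0.44). In 19 of the 45 every bleomycin library lay above both PBS libraries, and in 7 every one lay below. Over all genes these shares were 12.0% and 11.6%. Among the 4 that rose was the receptor gene Ccr1 of monocytes and neutrophils, at 89.7 and 146 in PBS and 631, 1235 and 1102 in bleomycin. The ligands Ccl2 and Ccl12, from a pair of genes on chromosome 11, attract monocytes through Ccr2. Ccl2 stood at 25.7 and 17.7 in PBS and 185, 108 and 157 in bleomycin, and Ccl12 at 2.78 and 0 in PBS and 82.6, 69.3 and 82.3 in bleomycin. Cxcl10, an interferon-induced ligand, stood at 34.8 and 13.2 in PBS and 187, 103 and 256 in bleomycin and did not pass (adjusted p = 0.061). Of 22 Toll-like receptor genes 2 rose. Tlr13, which detects bacterial ribosomal RNA, stood at 166 and 159 in PBS and 869, 1031 and 1214 in bleomycin and kept its call in all 8 fits (2.65 ± 0.29, limma adjusted p = 0.00506). Tlr1 stood at 57.4 and 43.1 in PBS and 220.1, 267 and 261 in bleomycin. Of 23 complement genes 1 rose, C3ar1, the receptor of the C3a fragment, at 508 and 499 in PBS and 1345, 1765 and 1702 in bleomycin. Complement changes ran from -5.06 to 2.65, with 7 genes apart above PBS and 5 apart below (12.0% and 11.6% over all genes).

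Neutrophil genes and alarmins had the highest list median, 2.58 over 19 tested, with 5 called higher and 1 lower. The values varied widely among bleomycin libraries. Lcn2, an iron-scavenging lipocalin, stood at 11.1 and 14.3 in PBS and 214, 490.2 and 880.4 in bleomycin, and Saa3, an acute-phase protein, at 101 and 48.9 in PBS and 359, 1962 and 1696 in bleomycin. S100a8, a subunit of calprotectin, stood at 0.695 and 0 in PBS and 38.6, 1610.3 and 80.8 in bleomycin, where Bleomycin 3 was far above the rest, and its partner S100a9 at 5.56 and 0 in PBS and 28.9, 2416 and 204 in bleomycin. The stefin genes Stfa2 and Stfa3 stood at 23.6 and 6.62 in PBS and 85.4, 772 and 235 in bleomycin and at 152 and 37.5 in PBS and 594, 3134 and 1430.0 in bleomycin, with the same order, in a family of near-identical copies. The decoy receptor gene Il1r2 fell, at 1630.2 and 1375 in PBS and 658, 447 and 567 in bleomycin. The neutrophil receptor gene Cxcr2 stood at 829 and 1283 in PBS and 1055, 1812 and 1433 in bleomycin and did not pass. T and NK cell genes had 0 of 25 called (median 0.16), B and plasma cell genes 0 of 10 (median -0.36) and mast cell genes 0 of 15 (median 0.51). Of the 19 myeloid and chemokine genes called, 10 stayed called without PBS 2, 3 without PBS 3, 17 without Bleomycin 2, 2 without Bleomycin 3 and 1 without Bleomycin 4.

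The list of stressed and wounded epidermis had 4 of 23 genes called higher and 0 lower (median 2.01, and 1.90 with genes at 0 in a whole group set to their bounds). Lcn2 and S100a8, given above, belong to this list too. Tmprss11d, an airway-type serine protease, was at 0 in both PBS libraries and at least 25.7-fold higher, at 25.4, 149 and 33.6. Epgn, a growth factor of the EGF family, stood at 139.8 and 61.8 in PBS and 324, 479.7 and 609.9 in bleomycin. The wound keratins Krt6a and Krt16 stood at 2723 and 633 in PBS and 5593, 39537 and 8755 in bleomycin and at 1604 and 148 in PBS and 2965, 27241 and 4995 in bleomycin, and neither passed (adjusted p = 0.108 and 0.137). The list's summed share of all values was 0.0749% and 0.0374% in PBS, and 0.111%, 0.715% and 0.158% in bleomycin.

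Small proline-rich proteins are crosslinked into the cornified envelope. Of 20 tested genes in the list of small proline-rich and late envelope genes 3 were called, all higher. They come from 1 cluster of near-identical copies on chromosome 3. Sprr2a1 also overlaps Sprr2a2 on the same strand, so reads may be shared among them. Sprr2a1 stood at 3.03 and 5.51 in PBS and 253, 885 and 600.1 in bleomycin and Sprr2a2 at 639 and 99.3 in PBS and 2508, 13899 and 6206 in bleomycin, and Sprr2a3 was 143 times higher from about 1 read in PBS (95% counting interval 25.5 to 5690). Sprr2a1 kept its call in all 8 fits, while the list median ranged from 0.67 to 2.61 with 1 library left out. Filaggrin (Flg), which binds keratin filaments in the cornified layer, stood at 6016 and 3109 in PBS and 17369, 15969 and 12692 in bleomycin and was the 1 called gene of 30 in differentiated epidermis (median 0.09). Gsdmc, a pore-forming gasdermin of epithelia, stood at 213 and 27.6 in PBS and 901, 5812 and 2087 in bleomycin. Of 12 basal epidermis genes 0 passed (median 0.04). The serpin gene Serpinb3a stood at 66.8 and 16.6 in PBS and 203, 1181 and 600.3 in bleomycin. Igfl3, of a small secreted family, stood at 13.2 and 12.1 in PBS and 111, 407 and 377 in bleomycin. Of the 7 epidermal genes called, 5 stayed called without PBS 2, 1 without PBS 3, 7 without Bleomycin 2, and 1 each without Bleomycin 3 and Bleomycin 4.

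**Figure D4:**
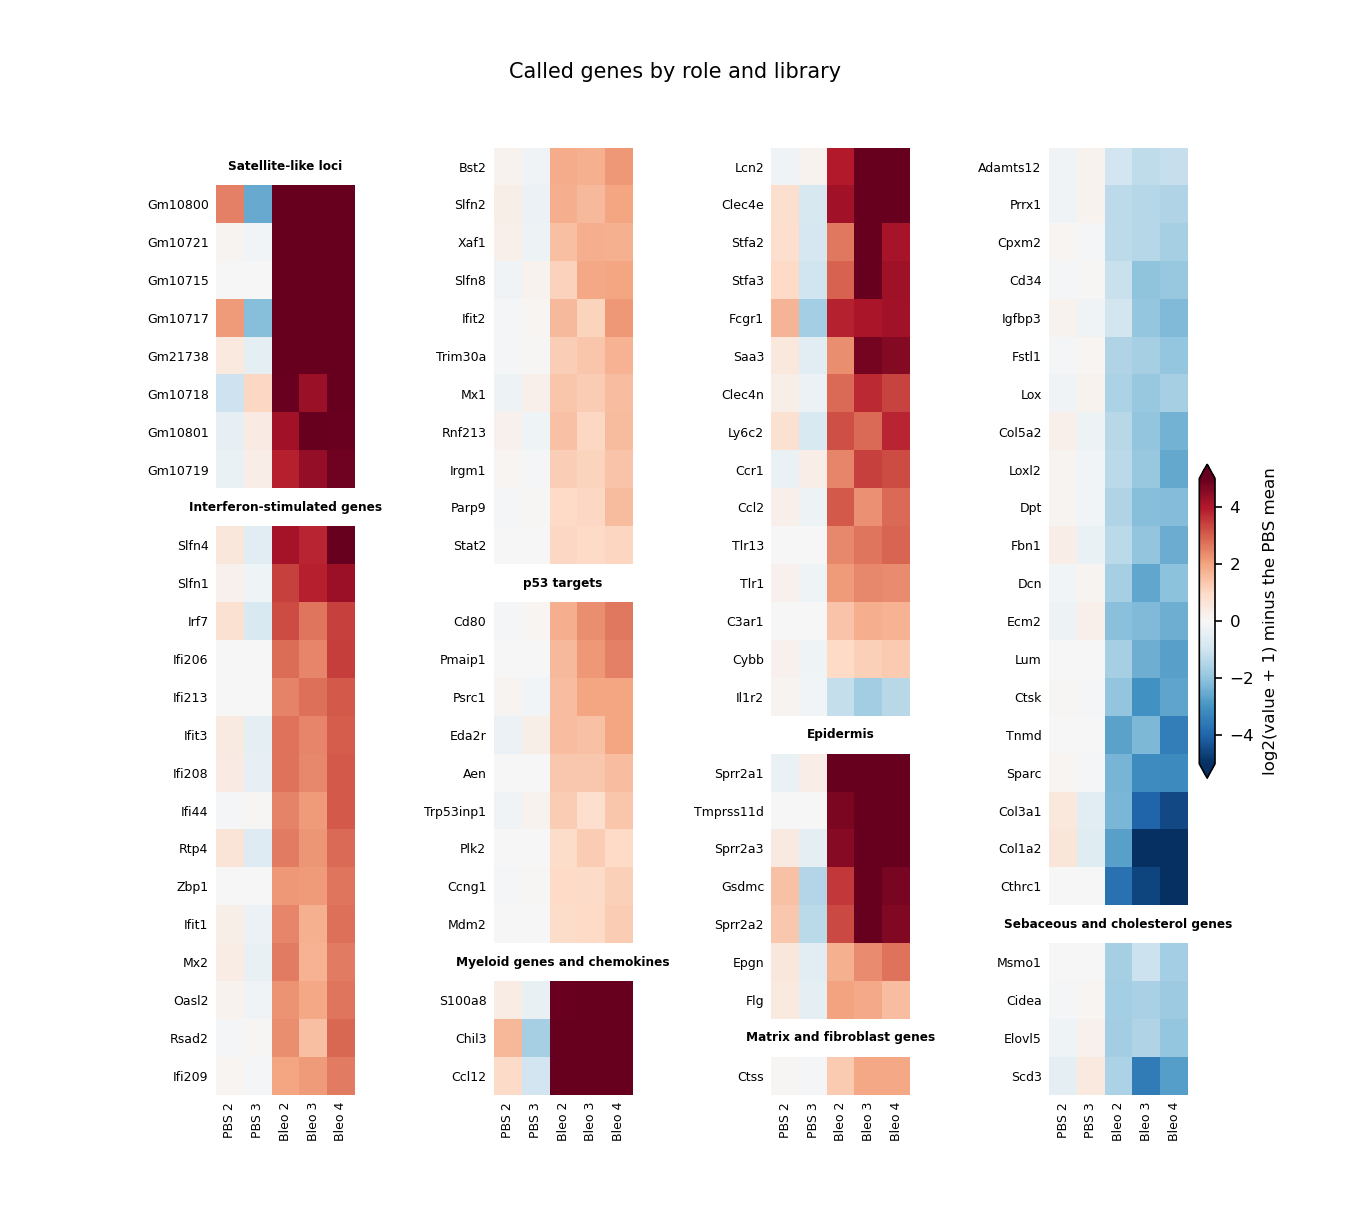
Called genes of 7 roles, for those named with values, in rows and the 5 libraries in columns; colour is log2(value + 1) minus the PBS mean of the gene, from −5 (blue) to 5 (red). A gene of several lists is drawn once, under the first role that holds it, and Ctss is the 1 red row among matrix and fibroblast genes.

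Over all matrix and fibroblast lists 20 genes fell and 1 rose, and most members did not pass. Of 11 fibrillar collagen genes 3 fell, 0 rose and 8 did not pass, with a median of -1.10. In 4 of the 11 every bleomycin library lay below both PBS libraries, and in 2, Col2a1 and Col24a1, above them. Over all genes 11.6% lay below in this way and 12.0% above. Col2a1, of cartilage collagen, was at 0 in PBS and at 21.3, 10.5 and 20.6 in bleomycin, at least 6.47-fold higher, and did not pass (limma adjusted p = 0.607). Col1a2, of type I collagen, stood at 238632 and 100851 in PBS and 23796, 4460.0 and 3293 in bleomycin, and Col3a1, of type III collagen, at 241499 and 113615 in PBS and 34443, 10378 and 7258 in bleomycin. Col5a2, of type V collagen, stood at 14244 and 9922 in PBS and 4568, 2995 and 2316 in bleomycin. In each, Bleomycin 2 was the bleomycin library nearest to PBS and PBS 2 was above PBS 3. The 11 genes took 3.02% and 1.15% of all values in PBS and 0.373%, 0.0850% and 0.0664% in bleomycin. Col1a1 stood at 200815 and 48044 in PBS and 18991, 1482 and 1238 in bleomycin and did not pass (-4.91 ± 1.06, limma adjusted p = 0.079), but passed with the GC trend removed (adjusted p = 0.0219). Gm43921, a predicted gene that lies inside Col1a2 on the same strand and so may share its reads, stood at 3077 and 4522 in PBS and 437, 295 and 248 in bleomycin. Of 18 genes of collagens VI, VIII, X and the fibril-associated collagens 0 passed (median -0.32). Among them, Col12a1 and Col14a1 had changes of opposite sign, at 0.81 ± 0.27 and -2.26 ± 0.44, and did not pass.

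Of 27 collagen processing genes 2 fell, the crosslinking oxidases Lox (7400.2 and 9360.0 in PBS and 2767, 2236 and 2615 in bleomycin) and Loxl2 (3327 and 2744 in PBS and 1199.9, 817 and 507 in bleomycin), with a median of -0.96. The collagen chaperone Serpinh1 stood at 4001 and 1679 in PBS and 1004, 358 and 334 in bleomycin and did not pass. Among 13 small leucine-rich proteoglycans, which coat collagen fibrils, 3 fell and 0 rose (median -1.54). In 8 of the 13 every bleomycin library lay below both PBS libraries, against 11.6% of all genes. Decorin (Dcn) stood at 52035 and 62506 in PBS and 17978, 9373 and 13898 in bleomycin and lumican (Lum) at 11801 and 11795 in PBS and 3736, 2171 and 1781 in bleomycin, which is its neighbour on chromosome 10. Ecm2 stood at 3898 and 5522 in PBS and 1084, 1004 and 862 in bleomycin. Biglycan (Bgn) stood at 4679.8 and 3637 in PBS and 3189, 3589 and 2949.7 in bleomycin and did not pass. Fibrillin 1 (Fbn1) stood at 19806 and 12462 in PBS and 6148, 3971 and 2796 in bleomycin and was the 1 called gene of 17 in elastic fibres (median -0.75).

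Among 26 matricellular genes 3 fell and 0 rose (median -0.12). Sparc, a collagen-binding protein, stood at 71156 and 62272 in PBS and 13138, 7509.6 and 7379.5 in bleomycin, Cthrc1, a secreted gene of activated fibroblasts, at 487 and 498 in PBS and 35.8, 19.6 and 7.35 in bleomycin and Fstl1 at 11954 and 13941 in PBS and 4527, 4074 and 3346 in bleomycin. Postn, or periostin, stood at 9447 and 9889.6 in PBS and 10124, 17400.1 and 13361 in bleomycin, with a change of 0.46 ± 0.22 that did not pass. Osteopontin (Spp1) stood at 122 and 36.4 in PBS and 366, 644 and 298 in bleomycin and did not pass (adjusted p = 0.0616). Of 32 matrix proteases and inhibitors 1 rose and 2 fell. Cathepsin K (Ctsk) stood at 9817 and 9094 in PBS and 2402, 1145 and 1512 in bleomycin and fell, while Ctss, which lies near it on chromosome 3, is the gene that rose. Adamts12 fell by 1.13.

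Of 23 fibroblast markers tested 3 fell and 0 rose (median -1.19), and 14 had every bleomycin library below both PBS libraries, against 11.6% of all genes. Dermatopontin (Dpt) stood at 5755 and 4788 in PBS and 1832, 1201 and 1164 in bleomycin, Cd34 at 7056 and 7559.9 in PBS and 3379, 1821 and 1944 in bleomycin, and Prrx1, a transcription factor of skin fibroblasts, at 10396 and 12941 in PBS and 4673, 4372 and 4090.2 in bleomycin. Pdgfra stood at 4587 and 4223 in PBS and 1412, 858 and 1106 in bleomycin and did not pass (adjusted p = 0.0537). The insulin-like growth factor binding protein Igfbp3 stood at 6548 and 5153 in PBS and 3109, 1518 and 1248 in bleomycin. The tendon genes Tnmd and Cpxm2 stood at 529 and 545 in PBS and 84.0, 114 and 48.5 in bleomycin and at 1306 and 1162 in PBS and 503, 452 and 389 in bleomycin. Of 35 Wnt and BMP genes 0 passed (median -0.60). Outside the lists, Serpinf1, an antiangiogenic serpin secreted by fibroblasts, stood at 3203 and 2622 in PBS and 702, 502 and 406 in bleomycin, the imprinted noncoding gene Rian at 3206 and 4698 in PBS and 760.2, 521 and 598 in bleomycin and the developmental transcription factor gene Zic1 at 625 and 734 in PBS and 169, 210.0 and 120.3 in bleomycin.

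Signalling and contractile genes known from fibrosis were not called, and over all genes tested 0.677% were. At that share nothing is drawn from a count of 0 in lists of this size, here or in other paragraphs. Of 23 TGF-beta pathway genes 0 passed (median -0.29), with 8.70% apart above both PBS libraries and 17.4% apart below. Of 21 smooth muscle and myofibroblast genes 0 passed (median 0.07), with 23.8% apart above and 0% below. Over all genes 12.0% were apart above and 11.6% below. Tgfb1 stood at 436 and 292 in PBS and 468, 263 and 332 in bleomycin, and Acta2, smooth muscle actin, at 1282 and 1479.6 in PBS and 2278, 1495 and 1846 in bleomycin. Of the 21 matrix and fibroblast genes called, 20 stayed called without Bleomycin 2, 1 without PBS 2, and 0 without PBS 3, Bleomycin 3 or Bleomycin 4. All 21 stayed called with the GC trend removed, but 7 with only the PBS and bleomycin libraries. With libraries of the same number fitted as a block, 1 stayed called. The median of the fibrillar collagens ranged from -1.67 to -0.52 with 1 library left out, and that of the fibroblast markers from -1.41 to -0.79. Median deviations of the collagens overlapped between groups, with Bleomycin 2 at -0.07 and PBS 3 at -0.54 against the PBS mean.

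**Figure D5:**
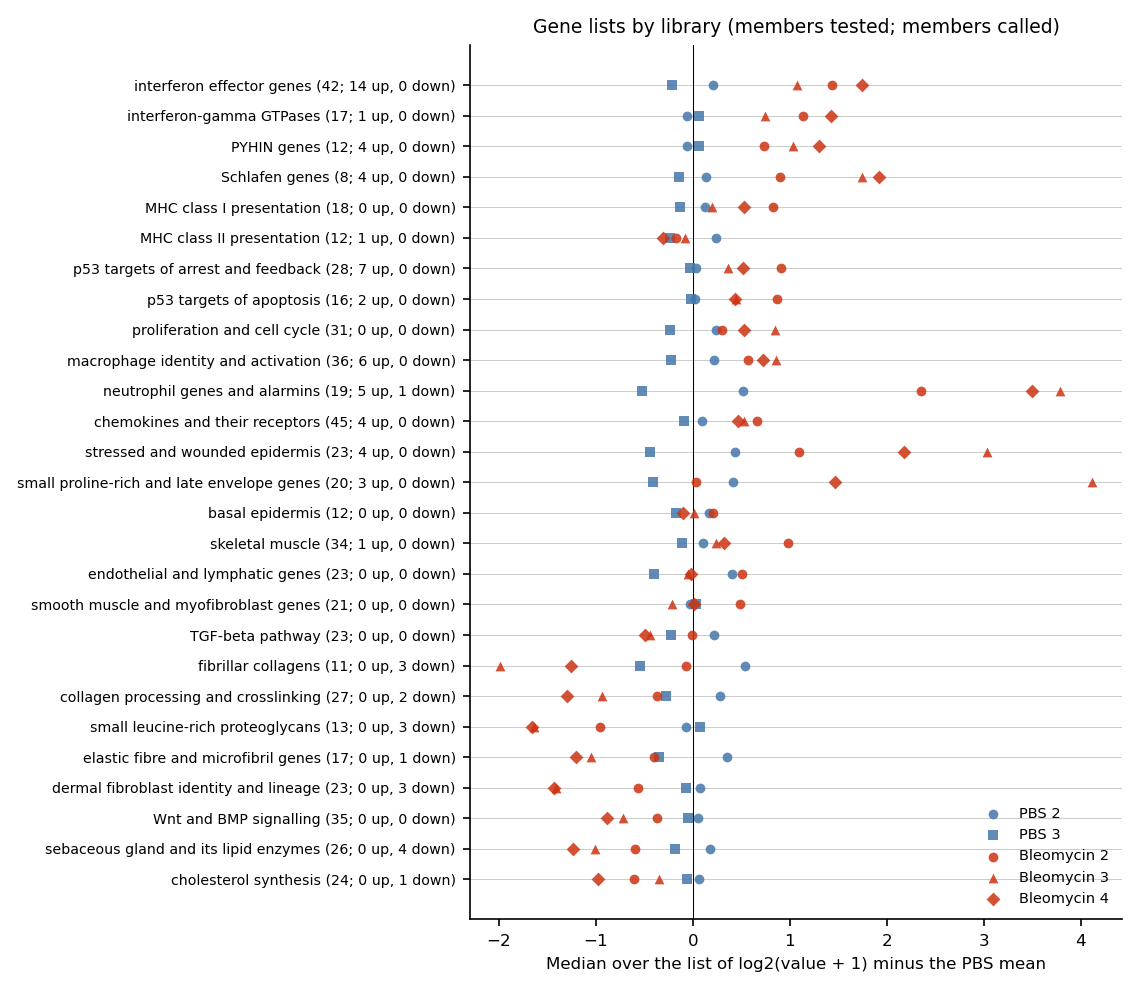
For 27 gene lists, the median over members of log2(value + 1) minus the PBS mean, per library; blue marks are PBS and red marks bleomycin. Interferon, Schlafen, neutrophil and stressed epidermis lists lie right of both PBS marks in all 3 bleomycin libraries, while the collagen marks of Bleomycin 2 and PBS 3 cross.

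Of 26 genes of the sebaceous gland and its lipid enzymes 4 fell and 0 rose (median -0.98). In 14 of the 26 every bleomycin library lay below both PBS libraries, against 11.6% of all genes. Elovl5, which lengthens polyunsaturated fatty acids, stood at 9996 and 13119 in PBS and 3447, 3993 and 2964 in bleomycin (-1.73 ± 0.22, limma adjusted p = 0.0101). Among the others, the desaturase gene Scd3 stood at 2238 and 4496 in PBS and 1046, 279 and 467 in bleomycin, and the lipid droplet gene Cidea at 812 and 943 in PBS and 271, 286 and 249 in bleomycin. Of 24 cholesterol synthesis genes 1 fell, the sterol oxidase gene Msmo1 at 6886 and 7014 in PBS and 2171, 3345 and 2113 in bleomycin (median -0.61). In 12 of the 24 every bleomycin library lay below both PBS libraries, against 11.6% of all genes. Outside the lists, the fatty acid genes Hacd2 and Hsd17b12 and the coenzyme A gene Pank1 fell by 1.21, 0.96 and 1.09. Echdc1, a decarboxylase of fatty acid metabolism, stood at 10624 and 15656 in PBS and 3250.2, 5326 and 4024 in bleomycin, and the retinoid-induced gene Rarres1 at 2567 and 2344 in PBS and 589, 612 and 318 in bleomycin. Of the 5 sebaceous and cholesterol genes called, 5 stayed called without Bleomycin 2, 1 without PBS 2, 2 without Bleomycin 3, and 0 without PBS 3 or Bleomycin 4.

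Some genes were at 0 in a whole group. Defb8, a beta-defensin gene, stood at 563 and 1283 in PBS, and at 0 in each of Bleomycin 2, 3 and 4. This is a fall of at least 338-fold. It belongs to a list of 11 antimicrobial genes with 3 called lower, 0 higher and 8 not called, whose median was 0.84. In 4 of the 11, Defb1, Defb4, Defb6 and Wfdc12, every bleomycin library lay above both PBS libraries, against 12.0% of all genes. S100a7l2 stood at 1700.4 and 3194 in PBS and 334, 447 and 199 in bleomycin, and the ribonuclease gene Rnase4 at 8948 and 8297 in PBS and 4072, 3151 and 3559.8 in bleomycin. Adgrg7, an orphan receptor gene, and Slc24a5, an ion exchanger of pigment granules, were at 0 in both PBS libraries. In bleomycin Adgrg7 stood at 19.3, 180.4 and 90.4, at least 35.8-fold higher, and Slc24a5 at 33.7, 81.0 and 66.1, at least 22.3-fold higher. Of 12 melanocyte genes Slc24a5 was the 1 called (median 0.47). The serpin genes Serpina3b and Serpina3j, which lie within 193 kb on chromosome 12, stood at 6127 and 9218 in PBS and 1508, 1545 and 682 in bleomycin and at 904 and 1135 in PBS and 264, 124 and 173 in bleomycin. Opcml, a neural adhesion gene, stood at 1703 and 2348 in PBS and 332, 161 and 262 in bleomycin and Skint7, of a family expressed in epidermis, at 1782 and 2541 in PBS and 686, 487 and 431 in bleomycin.

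Muscle and stress genes made up a smaller set. Of 34 skeletal muscle genes 1 rose, Myh1 at 12751 and 11297 in PBS and 34264, 24581 and 31180.1 in bleomycin (list median 0.54). In 14 of the 34 all bleomycin libraries lay above both PBS libraries, against 12.0% of all genes. Ankrd1, a stretch-induced repeat protein of muscle that YAP also induces, stood at 9.74 and 36.4 in PBS and 253, 354 and 273 in bleomycin. The muscle genes Cmya5 and Lrrc2 rose by 1.18 and 1.67. Of 23 immediate early genes 1 rose, the phosphatase gene Dusp1 at 529 and 437 in PBS and 1979.8, 1341 and 1564 in bleomycin, and Fos stood at 237 and 171 in PBS and 2804, 1180.3 and 956 in bleomycin and did not pass (adjusted p = 0.0746). Heat shock genes (0 of 18, median 0.14), NRF2 targets (0 of 24, median 0.22) and genes of the unfolded protein response (0 of 25, median 0.07) were not called. Over all genes 0.677% were called, so nothing is drawn from these counts of 0.

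Of the 157 called genes 98 belonged to a list, and 38 higher and 21 lower genes stood outside all lists. Those with the smallest p among them included Igsf9b, an adhesion gene of inhibitory synapses, at 137 and 131 in PBS and 552, 529 and 716 in bleomycin. Sp110, an interferon-inducible gene of nuclear bodies, stood at 327 and 316 in PBS and 808, 856 and 1203 in bleomycin, and Exoc4, of the complex that docks secretory vesicles, at 2560.0 and 3001 in PBS and 5069, 5694 and 6079 in bleomycin. Gsto1, a glutathione transferase, rose by 1.56. Among those that fell, Aadacl2fm1, of an esterase family, stood at 4492 and 5962 in PBS and 1272, 1745 and 1172 in bleomycin. Arhgap20, Pcdh18, a protocadherin gene, Ces4a, a carboxylesterase gene, Tmem263 and the phosphatase gene Lhpp fell by 1.62, 2.05, 2.18, 1.31 and 2.10.

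Some called genes lay near each other. With gaps of at most 200 kb, 51 of the 157 fell into 20 runs of at least 2 called genes, and in 17 of the runs all members changed in the same direction. Runs of mixed direction were Ctsk with Ctss, Tlr1 with the lower Fam114a1, and the Ifit genes with the lower Pank1. Beside the PYHIN, Schlafen and repeat-like runs, those of 1 direction held the higher pairs Mx1 and Mx2, Ms4a4c and Ms4a6b, Clec4n and Clec4e, and the lower pairs Col3a1 with Col5a2 and Dcn with Lum. Of the called genes 26 overlap a gene of the other strand in the table, and without knowledge of strand use in counting their reads cannot be told apart.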

How the data were processed

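RNA sequencing of total RNA from mouse skin gave 1 table of gene values for 8 libraries. Per the submitters' processing notes, Partek 10.0.22, STAR 2.7.3a, DESeq2 and mm10 were used. Per the file headers the values are the authors' deposited signal, read counts per gene divided by DESeq2 size factors (poscounts), and they are not counts; whole reads could not be recovered, so no count model was run. How reads of repeats and of overlapping strands were counted is not given in the sources used here.

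The 23185 genes that reached a value of 10 in 2 or more of 8 libraries were tested on log2(value + 1), a scale that understates changes of low genes, with limma 3.58.1 in R 4.3.3. The linear model had 3 groups, a variance trend and a two-sided contrast, bleomycin minus PBS, with Benjamini-Hochberg adjustment over all genes and a threshold of 0.05. The method was tested on simulated data. A gene at 0 in a group was set against a floor of 3 reads per library. Intervals at 95% treat values rounded to whole reads as counts, and cover counting error only.

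The named genes are the 15 highest and 15 lowest changes among called genes with a mean of at least 50, the 15 smallest p in each direction outside the lists, called members of 66 gene lists and marked members; predicted and ribosomal protein genes were left out. The genes and lists were chosen with earlier results of these data known. Transcripts and GC came from GENCODE M21 (positions of 154 of 157 called genes matched), promoters from RefSeq. Alternatives changed the pseudocount, filter, scaling, variance model, libraries and a replicate block, and the GC correction was chosen after seeing the data. Some genes that the rule for named genes covers are not reported here.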

Additional observations from a re-analysis of the deposited data

How the results depend on the processing

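Direction held for all 157 called genes in every alternative run, and the number of calls did not. With 1 library left out, calls in all ranged from 16 to 229, those higher from 15 to 130 and those lower from 0 to 99. Leaving out Celastrol 5, which is in neither group compared, gave 103 calls, 58 of them higher. With only the PBS and bleomycin libraries 46 genes were called (20 higher, 26 lower), of which 35 were among the 157. Library weights gave 711 (384 and 327), no trend in the variance prior 7 (2 and 5), and the GC correction, chosen after seeing the data, 295 (174 and 121). The causes were not tested. A fit with the replicate block gave 17 calls (10 higher, 7 lower), of which 14 were among the 157. PBS and bleomycin libraries share the numbers 2 and 3, and the correlation of their deviations from the group means was 0.20 for number 2 and 0.10 for number 3, against -0.20 to 0.09 for different numbers. With 2 PBS libraries these values come in pairs of opposite sign, and the labels do not say that a number pairs libraries, so whether the numbers pair them was not shown. Other pseudocounts, filters and scalings and a robust prior left 139 to 157 of the 157 called. The medians of 16 of 65 lists, between -0.36 and 0.76 in the fit of all libraries, changed sign without 1 library. Among uncalled genes named with values, 3 changed sign when 1 library was left out, all at an adjusted limma p of 1: Csf1r ranged from -0.85 to 0.00, Tgfb1 from -0.34 to 0.24 and Trp53 from -0.06 to 0.23. At the depth of 18500000 to 33600000 reads, genes with few reads in PBS have wide counting intervals.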

Other observations

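Lists of other cell types and programmes are given by their calls and medians. Of 23 endothelial and lymphatic genes 0 were called (median log2 change -0.02), as were 0 of 9 pericyte genes (-0.36), 0 of 14 nerve and Schwann cell genes (-0.15), 0 of 19 adipocyte genes (0.14) and 0 of 8 blood genes (0.76). Basement membrane genes had 0 of 23 called, with a median of -0.21. With 1 library left out these medians changed sign, ranging from -0.30 to 0.16 for endothelial, -0.51 to 0.42 for pericyte, -0.54 to 0.24 for nerve, -0.26 to 0.67 for adipocyte, -0.17 to 1.34 for blood and -1.02 to 0.22 for basement membrane genes. Of 40 interleukins and related cytokines Il1r2 was the 1 called, and it fell. Of 20 senescence and secretome genes Ccl2 rose and Igfbp3 fell. Glucocorticoid-responsive genes had 2 of 19 called, Dusp1 and Lcn2, with a median of 0.60. Circadian clock genes had 0 of 17 called (-0.03), hypoxia and glycolysis genes 0 of 22 (0.44) and oxidative phosphorylation genes 0 of 36 (0.19). Over all genes 0.677% were called and 1582 had an unadjusted limma p below 0.05. A count of 0 here is a count at the adjusted threshold, and nothing is drawn from it in lists of this size. Of 23 YAP and TEAD genes Ankrd1 was the 1 called (median -0.11), and of 15 genes of the EGF receptor system Epgn was the 1 called (-0.17).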
